A study of Mus musculus with 33 samples.

Results

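Genes that mark lymphatic endothelium were followed in lymphoid tissue of mice given nicotinamide (NAM, a form of vitamin B3). The 8 genes were Lyve1, Prox1, Pdpn, Flt4, Mmrn1, Reln, Ackr4 and Vegfc, matched by gene symbol, with no threshold on their values. They took up 10 of the 56414 rows of the expression table, and 8 of those rows held reads. RNA came from C57Bl/6 mice that were untreated or drank NAM at 0.5% in water over 1, 3 or 14 days, renewed every 7 days by the labels and more often by the study's methods. The strain was shared by all groups, the labels name no transgene, further agent or age, and the study's methods give female sex and a range of ages for its mice as a whole, not for these groups. Libraries labeled spleen numbered 5 in each of the 4 groups. Of the 33 libraries, the other 13 were labeled lymph node, with 3 from untreated mice, 2 from the 1-day group and 4 from each of the longer durations.

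Lymphatic vessels drain fluid, antigens and migrating immune cells from tissue into lymph nodes, where lymphatic endothelium lines the sinuses. Their endothelium is specified by the transcription factor PROX1 and grows in response to VEGFC, which binds the receptor VEGFR3, the product of Flt4. LYVE1 is a hyaluronan receptor, podoplanin (Pdpn) a membrane mucin that activates platelets, ACKR4 a scavenger of the chemokines CCL19 and CCL21, reelin (Reln) and multimerin (Mmrn1) secreted glycoproteins. The spleen holds few lymphatic vessels. Lymphatic endothelium is not their only source: fibroblastic reticular cells express Pdpn, some macrophages and sinusoidal endothelia express Lyve1, and Flt4 is found in fenestrated blood vessels. In RNA from whole tissue, fewer cells of a type and less RNA per cell cannot be told apart.

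The start regions of 2 members are printed to show the letters around the ligand gene and around Pdpn, the member with the smallest adjusted p values under NAM in labeled spleen. They are RefSeq promoters of assembly GRCm38.p6, the build of the mm10 coordinates used here, with 250 bases before and 50 after the start, written 5′ to 3′ on the strand of the gene. RefSeq promoters matched 7 of the 8 members, and Lyve1 was not matched. Capitals mark the nuclear receptor motif AGGTCA (which Nr2f2, a factor described further on, is known to bind) and the GC box GGGCGG, each searched on both strands. The Pdpn promoter lies at chr4:143299515-143299814 on the minus strand and the Vegfc promoter at chr8:54077282-54077581 on the plus strand.
Pdpn: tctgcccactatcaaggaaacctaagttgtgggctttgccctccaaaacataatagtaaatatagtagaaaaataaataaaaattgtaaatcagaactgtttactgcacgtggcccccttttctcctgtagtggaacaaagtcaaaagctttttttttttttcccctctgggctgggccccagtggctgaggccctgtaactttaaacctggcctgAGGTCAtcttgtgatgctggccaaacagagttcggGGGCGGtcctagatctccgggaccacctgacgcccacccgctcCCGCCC
Vegfc: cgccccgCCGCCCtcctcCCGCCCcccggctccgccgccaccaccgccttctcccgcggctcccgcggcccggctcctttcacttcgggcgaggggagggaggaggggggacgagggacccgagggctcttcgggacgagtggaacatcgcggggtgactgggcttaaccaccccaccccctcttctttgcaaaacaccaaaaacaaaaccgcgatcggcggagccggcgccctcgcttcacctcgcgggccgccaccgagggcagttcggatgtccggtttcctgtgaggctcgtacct

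The Pdpn window held 1 AGGTCA and 2 GC boxes, and the Vegfc window 2 GC boxes. Among 32851 promoters of the same length, 16.3% held AGGTCA and 35.7% a GC box. The SOX core AACAAT was in the Mmrn1 window, in 0 of the windows of the other matched members and in 10.7% of all promoters. G and C made up 48.7% of the Pdpn window and 70.3% of the Vegfc window, against a median of 52.7% over all promoters. These matches describe letters and name no binding site.

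The tissue labels were first checked against marker genes, and they went the opposite way. Glycam1, which encodes a mucin made by high endothelial venules, had 108167 to 214211 normalized counts in the 20 libraries labeled spleen and 1.59 to 12.4 in the 13 labeled lymph node. Spic, a factor of splenic red pulp macrophages, had 774 to 1295 and 6117 to 10491. Both genes went against the label in 33 of 33 libraries, so tissues are named here only as labeled. Adipocyte markers summed to 36607 to 522766 normalized counts in labeled spleen and to 2659 to 4282 in labeled lymph node. Exocrine pancreas markers summed to 140927 in replicate 1 of the 1-day group of labeled lymph node and to 1111 in replicate 2. Whole reads per library numbered 18325061 to 54830743 and 30424968 to 46733974, respectively, and the 3-day libraries of labeled spleen (43632016 to 54830743) were all deeper than the untreated ones (18325061 to 31486631). The plot of marker lists shows these differences library by library.

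**Figure D1:**
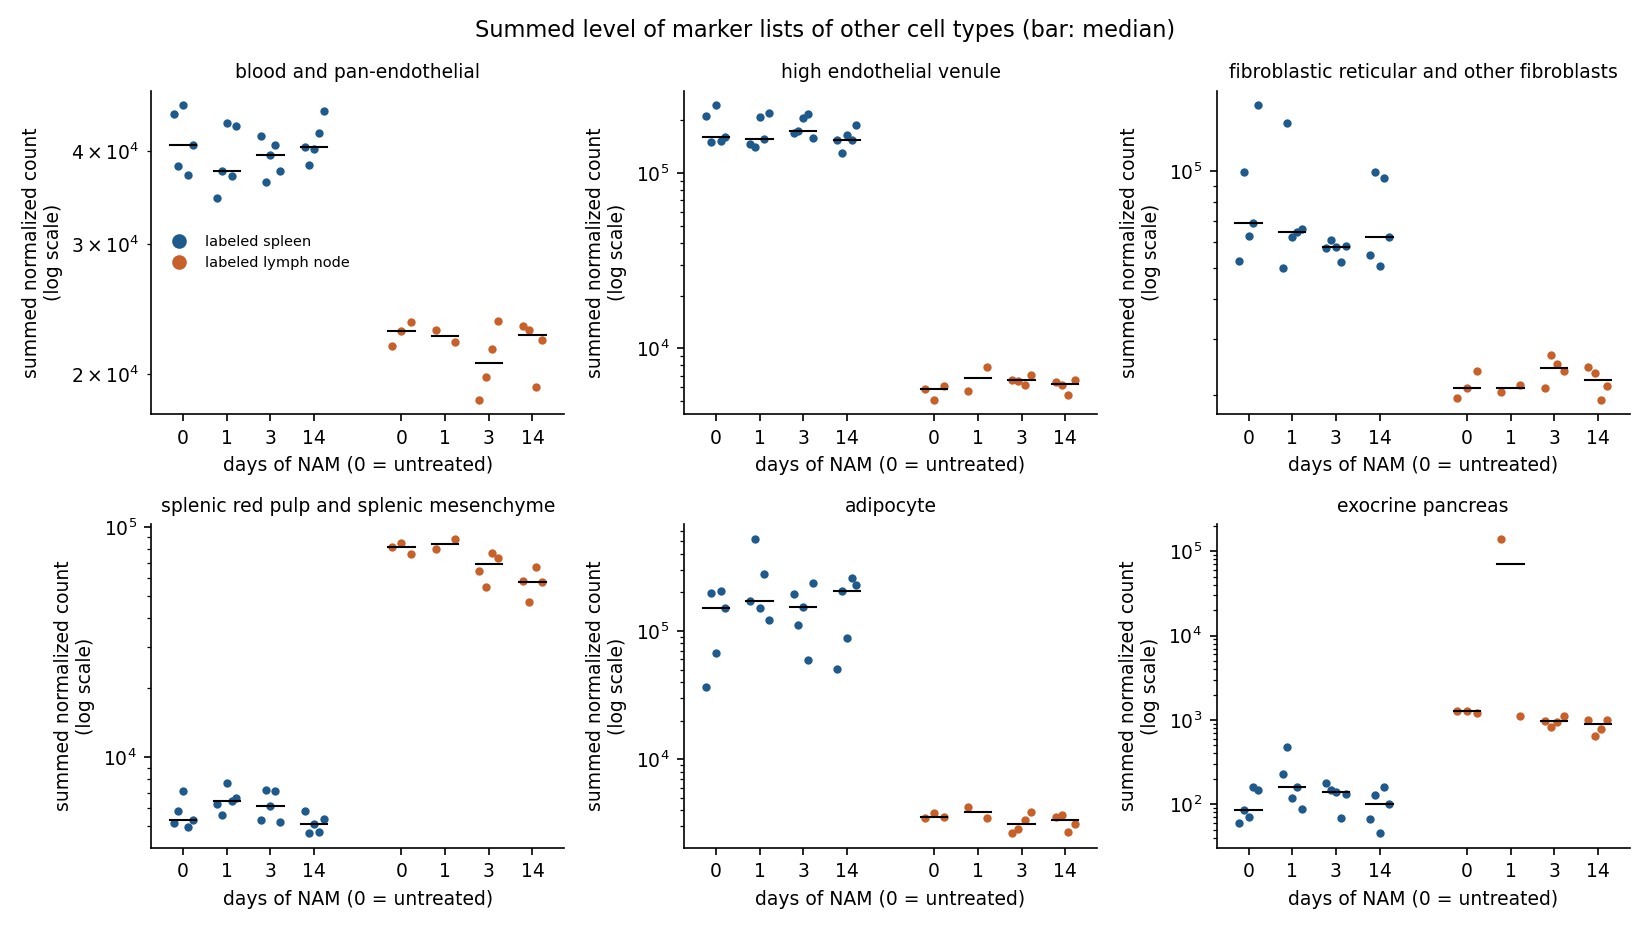
Summed normalized counts (log scale) of marker genes of 6 other cell types in each library, by days of NAM, blue for labeled spleen and orange for labeled lymph node, with the group median as a bar. High endothelial venule, fibroblast and adipocyte markers are higher and splenic red pulp markers lower in every library labeled spleen, and 1 library of labeled lymph node reaches 140927 for pancreas markers.

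Most of the lymphatic genes tested differed between the tissue labels. Across untreated libraries, 5 of the 7 member rows that could be tested were higher in labeled spleen and 0 were lower (limma adjusted p below 0.05). Over all 18528 rows tested, 64.1% were called and 32.6% were called as higher in labeled spleen, so a call by itself is common in this comparison. The median log2 difference was 0.74 over the members and -0.01 over all rows. With the NAM groups compared at the same duration, 5, 7 and 5 of the 7 members were called at 1, 3 and 14 days, where 57.6%, 64.6% and 67.5% of all rows were called. Libraries of the 2 labels had been scaled separately, and these differences were computed after rescaling all 33 together.

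Lyve1 (chr7:110850603-110863059, mm10, minus strand) showed the widest gap. Its normalized counts in untreated labeled spleen were 996, 1756, 1060, 973 and 1211, and in untreated labeled lymph node 16.3, 17.6 and 6.63. The groups do not approach each other, and in labeled lymph node the values rest on 4 to 48 reads. The difference was 6.57 ± 0.38 (SE) on the log2 scale, a fold of 95.04 with a 95% confidence interval of 55.2 to 164 (limma adjusted p = 4.11e-15). It was 5.61, 7.16 and 6.71 at 1, 3 and 14 days. Marker genes of macrophages that can carry LYVE1 summed to 35568 to 46089 normalized counts in untreated labeled spleen and to 56666 to 58730 in untreated labeled lymph node. Their part in the Lyve1 difference was not tested.

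Pdpn (chr4:143267409-143299564, minus strand) had 306.5, 327.5, 296.6, 233.6 and 372.6 normalized counts in untreated labeled spleen and 30.6, 30.9 and 35.4 in untreated labeled lymph node. The lowest of the first group was several times the highest of the second. The log2 difference was 3.34 ± 0.23, or 10.1-fold (limma adjusted p = 2.34e-13). Of 18 markers of fibroblasts, which share Pdpn, 17 were also higher in untreated labeled spleen and 0 lower (32.6% of all rows were higher). Their summed level was 52590 to 160268 there and 19693 to 23831 in labeled lymph node. Their part in the Pdpn difference was not tested.

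Flt4, the VEGFC receptor (chr11:49609262-49652737, plus strand), had 583.5, 1077, 729.6, 641.2 and 1000 normalized counts in untreated labeled spleen. In untreated labeled lymph node it had 288.8, 272.4 and 265.2, all below the first group. The log2 difference was 1.65 ± 0.18, or 3.13-fold (limma adjusted p = 4.30e-09). Blood and pan-endothelial markers moved the same way, with 14 of 19 higher and 0 lower, next to 32.6% of all rows higher. Their sum was 37196 to 46184 against 21858 to 23529. Their part in the Flt4 difference was not tested.

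Prox1 (chr1:190121781-190170714, minus strand), which encodes the factor that sets lymphatic identity, had 114, 245, 168, 167 and 245 normalized counts in untreated labeled spleen and 129, 148 and 90.6 in untreated labeled lymph node. The groups overlapped. The log2 difference was 0.73 ± 0.25, or 1.66-fold (limma adjusted p = 0.0138), and without untreated replicate 3 of labeled lymph node it was 0.53 (adjusted p = 0.116). It was 1.36, 1.01 and 1.09 at 1, 3 and 14 days, with adjusted p of 0.00040 or less. Its exons share bases with the antisense Prox1os, whose own row averaged at most 4.43 normalized counts in any group.

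Ackr4 (chr9:104084157-104126933, minus strand) was higher in untreated labeled spleen by 0.71 ± 0.18 on the log2 scale, or 1.63-fold (limma adjusted p = 0.00143). Values were 436, 440, 546, 435 and 643 normalized counts against 305, 333 and 365, without overlap. Ackr4 shares exon bases with Acad11 on the other strand, and use of strand in the counting is not stated. The row that holds Acad11 had a mean of 1837 ± 535 (SD, n = 5) normalized counts in untreated labeled spleen and 1114 ± 67.4 (n = 3) in labeled lymph node, so reads of that gene in the Ackr4 row cannot be told apart from its own.

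The remaining members did not pass between untreated libraries. Reln (chr5:21884454-22344706, minus strand) had 53.7 ± 21.9 normalized counts (SD, n = 5) in untreated labeled spleen and 33.02 ± 3.01 (n = 3) in labeled lymph node, a log2 difference of 0.74 ± 0.36 that did not pass (limma adjusted p = 0.0767). It passed without untreated replicate 2 of labeled spleen (0.0412) or without replicate 3 (0.0438). A second Reln row, of 4.55 normalized counts on average in labeled lymph node and 1.40 in labeled spleen, was below the filter. Vegfc, the ligand (chr8:54077532-54187096, plus strand), had 175, 197, 208, 139 and 212 normalized counts in untreated labeled spleen and 200, 239 and 235 in labeled lymph node. The difference was -0.14 ± 0.17 on the log2 scale (adjusted p = 0.483), with a 95% interval of -0.50 to 0.21. At 3 days of NAM it was -0.53 ± 0.16 (adjusted p = 0.00449), lower in labeled spleen. The 2 overlapping rows of Mmrn1 (chr6:60944317-60989378 and chr6:60924975-60946118, plus strand) are listed at 0 in all 33 libraries.

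**Figure D2:**
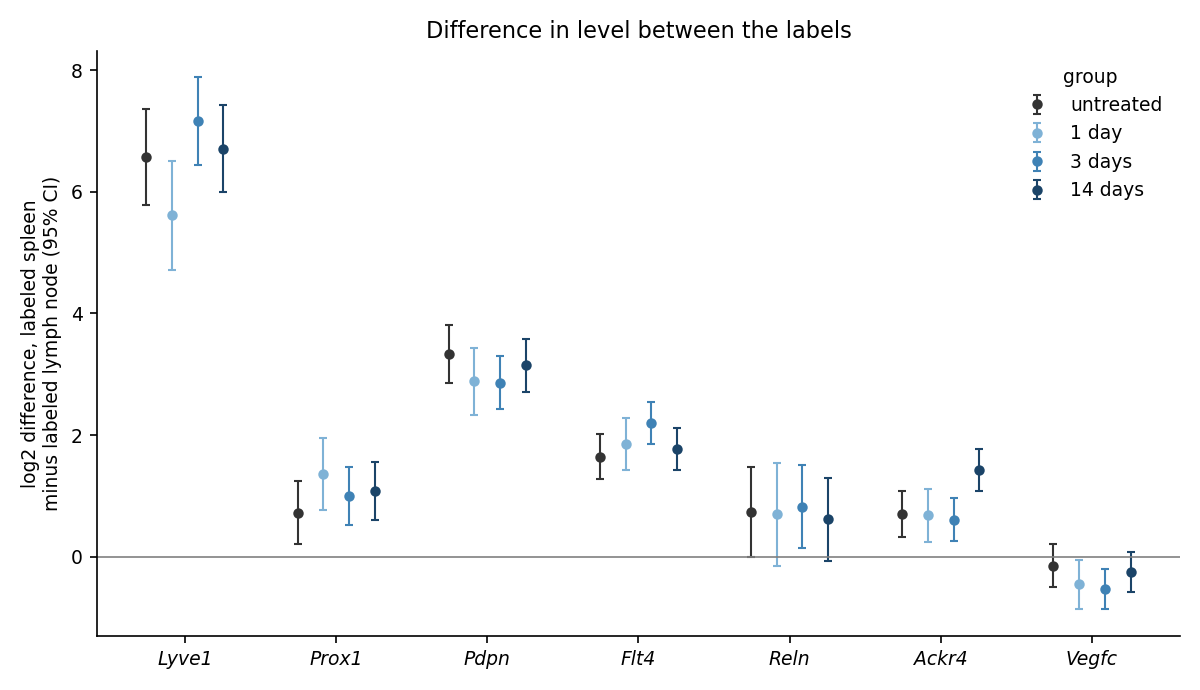
Difference between labeled spleen and labeled lymph node in each member, on the log2 scale of jointly rescaled normalized counts plus 1, within untreated libraries and within each NAM duration, with 95% confidence intervals from limma. Lyve1 lies between 5.61 and 7.16 and Pdpn between 2.87 and 3.34, while every Vegfc point is below 0.

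Genes that work with these members in lymphatic vessels were taken as 3 lists. Of 10 transcription factors of lymphatic development, Tbx1 and Foxc2 passed the filter on low values only through labeled spleen and so had to differ. Of the other 8, 7 were higher in untreated labeled spleen, where 32.6% of all rows were higher and 64.1% were called in either direction. Tbx1, a T-box factor, had 170 to 310 normalized counts there and is listed at 0 in all 13 libraries labeled lymph node. Nfatc1, a factor of lymphatic valves and of activated lymphocytes, differed by 1.70 ± 0.13 (log2), and Sox18, which acts upstream of Prox1, by 1.41 ± 0.12. The 7 are limma calls, with adjusted p from 2.92e-12 to 0.00738.

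Of 13 further genes of VEGFC-VEGFR3 signaling, 5 were higher and 2 lower, next to 32.6% higher and 64.1% called in either direction over all rows. The 3 with the smallest p were Nrp2, a co-receptor of VEGFR3 (2.46 ± 0.14 on the log2 scale), the endothelial adaptor Rasip1 (1.5 ± 0.12) and Kdr, which encodes VEGFR2 (1.54 ± 0.19). Of 34 surface, junction and secreted genes, 13 were higher and 14 lower, so for both lists the share that was higher lay near that of all rows. Celsr1, a planar polarity cadherin of lymphatic valves, was higher by 1.69 ± 0.09, and Clca3a1 was lower, with a log2 difference of -2.13 ± 0.15. Ptx3, counted among the 13, had 41.5 to 92.2 normalized counts in labeled spleen and is listed at 0 in untreated labeled lymph node. It passed the filter on low values only through labeled spleen and so had to differ.

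In labeled spleen, no member passed the test at any duration of NAM. In limma 0 of 7 tested rows were called at 1 day, where 16.6% of 18243 rows were, at 3 days (5.55%) or at 14 days, where 0 of all rows were (0%) in limma, 510 had an unadjusted p under 0.05, and edgeR and DESeq2 called 0 and 1. The moderated F test for any difference among the 4 groups also called 0 of 7 members (12.4% of all rows). The unadjusted p was under 0.05 for 1 member at 1 day, 1 at 3 days and 0 at 14 days, in both cases Pdpn. Median changes of the members were -0.04, -0.05 and 0.01 on the log2 scale, against 0.01, 0.00 and 0.00 over all rows.

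Pdpn had 169.4, 274.6, 266.9, 188.9 and 256.3 normalized counts after 1 day and 248.7, 226.4, 242.6, 201.4 and 204.2 after 3 days, next to 306.5, 327.5, 296.6, 233.6 and 372.6 without NAM. The means were 231 ± 48.5, 225 ± 21.6 and 307 ± 50.5 (SD, n = 5), with overlap in the range of the lowest untreated library. The log2 differences were -0.42 (95% interval -0.73 to -0.11, limma adjusted p = 0.0614) and -0.44 (-0.75 to -0.13, adjusted p = 0.0875). At 14 days the value was -0.17 (-0.48 to 0.14, adjusted p = 1). The 1-day difference passed without untreated replicate 4 (adjusted p = 0.0298) or without 1-day replicate 2 (0.0425). In edgeR 0 members passed, and in DESeq2 Pdpn passed at 1 and 3 days, with adjusted p of 0.0437 and 0.0341. Fibroblast markers had a median difference of -0.15 at 1 day, with 1 of 18 lower, and of -0.30 at 3 days, with 0 called. Their part, and that of the greater depth at 3 days, was not tested.

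The other 6 members did not pass in labeled spleen, with 95% intervals that reached from -0.72 to 0.54 on the log2 scale. Lyve1 ranged over 973 to 1756 normalized counts without NAM, and the 1-day (1061 to 1411), 3-day (845 to 1485) and 14-day (1078 to 1568) ranges overlapped it. The 95% intervals of its log2 changes ran from -0.31 at the lowest to 0.48 at the highest. Flt4 averaged 806 ± 220 (SD, n = 5) without NAM, and its NAM means were 914, 847 and 796 in order of duration. Prox1 averaged 188 ± 56.4 without NAM, then 155 ± 16.7, 159 ± 66.8 and 175 ± 27.1, and 1 of the 3-day libraries, replicate 1, had 276 where the other 4 had 113 to 149. Ackr4 means lay between 481 and 553, Vegfc means between 179 and 186 and Reln means between 47.7 and 53.7. For each of these 6 the 95% interval included 0 at every duration. The lowest bound was that of Prox1 at 3 days and the highest that of Flt4 at 1 day. With array weights Prox1 was called at 3 days.

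**Figure D3:**
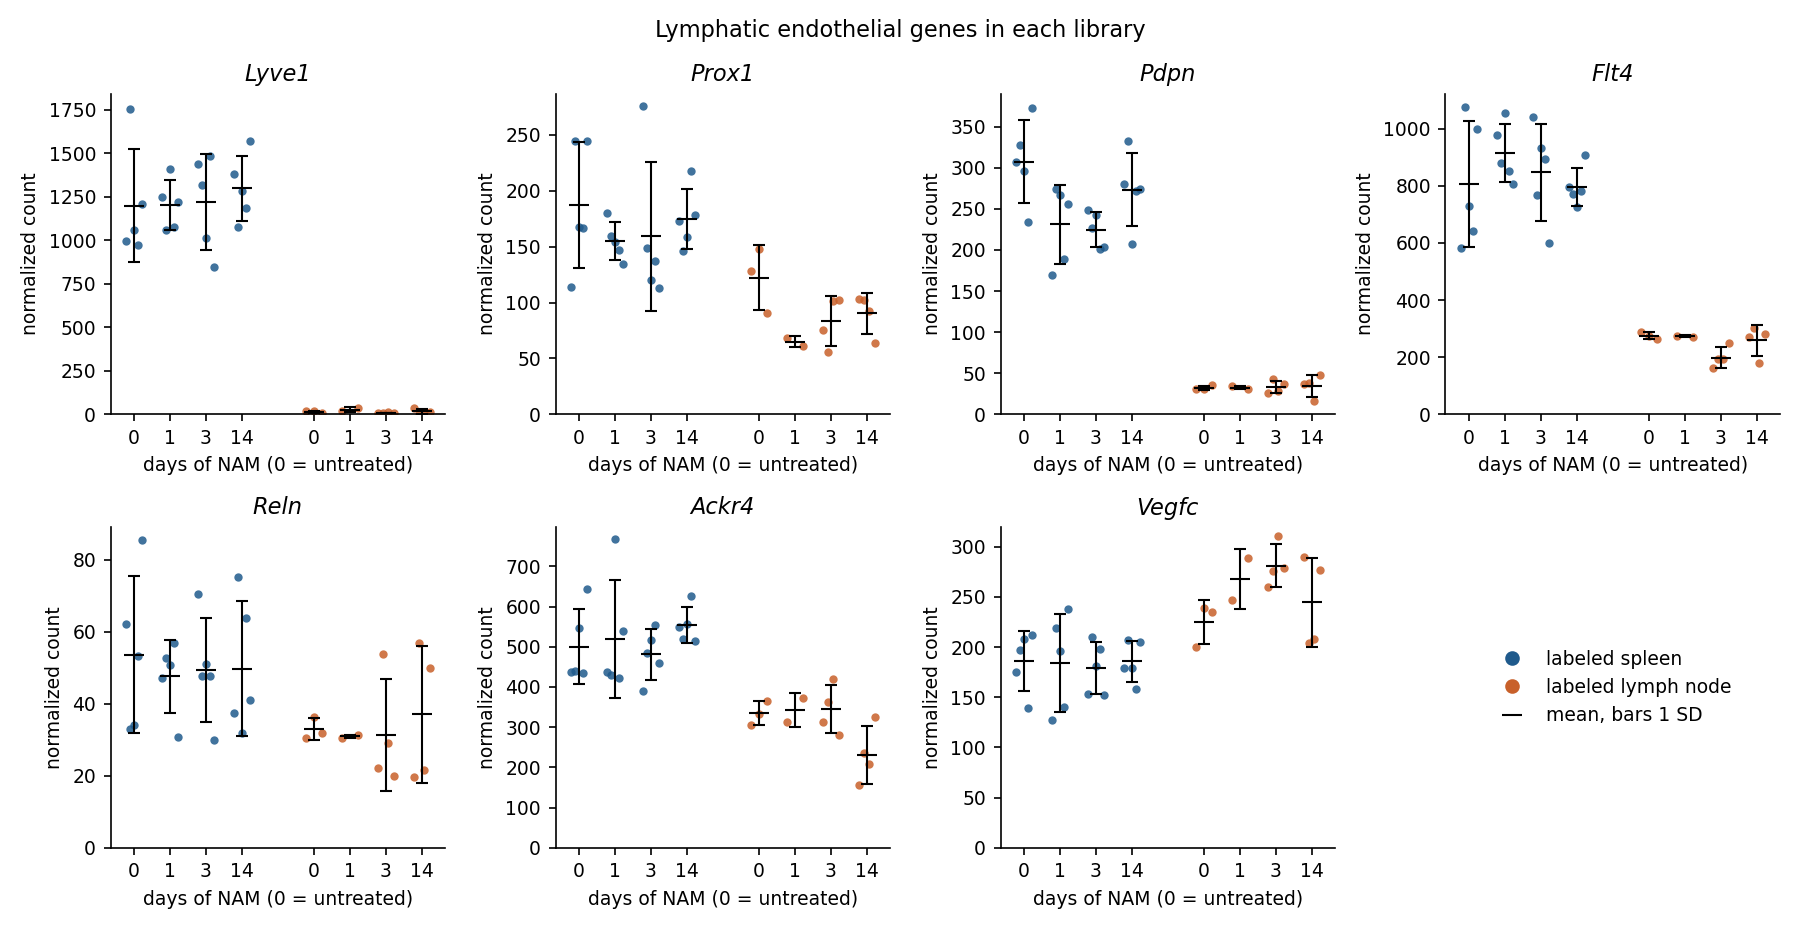
Normalized counts of the 7 members with reads in each library, by days of NAM, blue for labeled spleen and orange for labeled lymph node, with the mean and 1 SD in black. The 2 labels were scaled separately by the depositors. Lyve1, Pdpn and Flt4 of labeled spleen lie above every library of labeled lymph node, Pdpn falls from a mean of 307 to 231 and 225 at 1 and 3 days without passing the test, and Vegfc is the member with the higher means in labeled lymph node.

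In labeled lymph node, no member passed either. The counts were 0 of 7 at 1, 3 and 14 days and in the F test, where limma called 1.21%, 1.24%, 0.791% and 1.76% of 18215 rows, and edgeR and DESeq2 each called 0 members. The unadjusted p was under 0.05 for 1, 3 and 1 members in order of duration. For the ligand and its receptor the largest differences came at 3 days. Flt4 had 161, 192, 193 and 249 normalized counts, all below the untreated 265 to 289 (log2 difference -0.48 ± 0.17, limma adjusted p = 0.182). Vegfc had 260, 276, 310 and 278, all above the untreated 200 to 239 (0.32 ± 0.14, adjusted p = 0.285).

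Prox1 had 128.6, 147.8 and 90.6 normalized counts in untreated labeled lymph node, 68.6 and 61.6 at 1 day and 75.1, 55.7, 101.0 and 102.3 at 3 days. The 1-day libraries were below the untreated ones and the 3-day libraries overlapped them. The log2 differences were -0.87 ± 0.28 (limma adjusted p = 0.148) and -0.56 ± 0.23 (0.280), and at 14 days the interval was -0.92 to 0.07. The 1-day difference rests on 2 libraries, of which 1 held the pancreas transcripts described above. Over 17 alternatives, those that leave out a library included, it ran from -1.07 to -0.72 with adjusted p from 0.0558 to 0.391.

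Ackr4 had 155, 236, 208 and 326 normalized counts at 14 days against 305, 333 and 365 in untreated labeled lymph node, with 1 library inside the untreated range (log2 difference -0.58 ± 0.19, limma adjusted p = 0.210). In the F test it passed once, without 14-day replicate 4 (adjusted p = 0.0324). The row with Acad11 averaged 1208 ± 82.9 at 14 days. Lyve1 stayed at 3.46 to 38.0 normalized counts over all 13 libraries, with intervals from -1.79 to 2.42 that allow large changes either way. Pdpn had group means of 32.3 to 34.8 and Reln of 31.0 to 37.1, on 14 to 66 reads a library.

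The change under NAM was then compared between the labels in a joint model. Of 7 members 0 differed in limma, edgeR or DESeq2 at 1 day (1.48% of 18528 rows were called), 3 days (0.631%) or 14 days (0.124%). The unadjusted p was under 0.05 for Flt4 at 3 days, with a log2 difference between changes of 0.56 (limma adjusted p = 0.322), and for Ackr4 at 14 days, with 0.73 (adjusted p = 0.631). For Lyve1 the 95% interval of the difference at 1 day was -2.15 to 0.23, with 2 libraries at 1 day and 6 to 32 reads a library in the labeled lymph node groups compared.

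**Figure D4:**
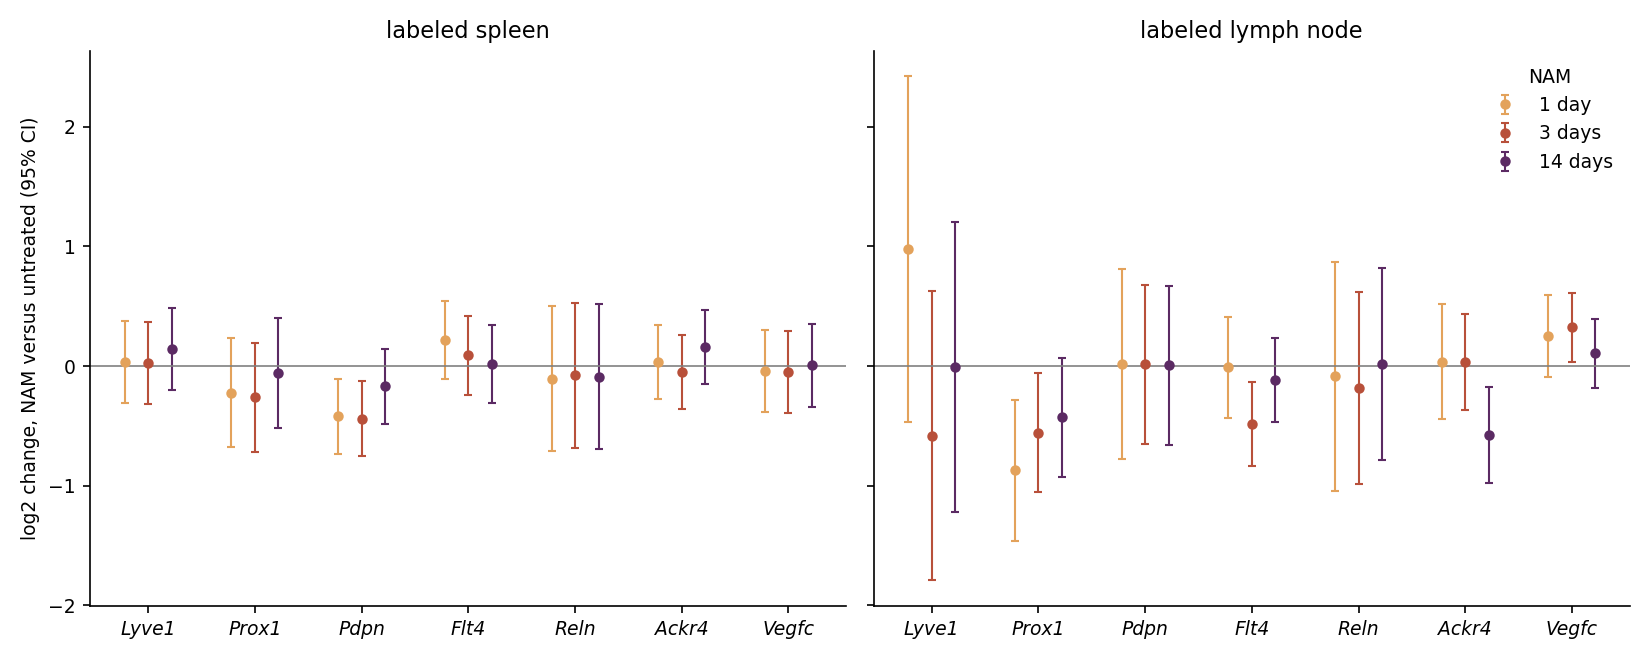
Log2 change of each member after 1, 3 and 14 days of NAM against untreated libraries of the same label, with 95% confidence intervals from limma. In labeled spleen the Pdpn intervals at 1 and 3 days lie below 0 (-0.42 and -0.44), and in labeled lymph node those of Lyve1 are the widest. No point passed the adjusted threshold.

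Some transcription factors of the lymphatic list fell in labeled spleen at 1 and 3 days of NAM. At 1 day 5 of 10 were lower and 0 higher (16.6% of all rows were called), at 3 days 4 of 10 were lower and 0 higher (5.55% of all rows), and at 14 days 0 were called in limma, edgeR and DESeq2, with 1 at an unadjusted p under 0.05. The median change of the 10 was -0.43, -0.36 and -0.10 on the log2 scale. All 10 log2 values were below 0 at 1 day and at 3 days. Several of these factors are also used by lymphocytes and their precursors, which make up most of a lymphoid organ, so the cells behind the change cannot be told apart in whole tissue.

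Klf2, a shear stress factor of endothelium that naive lymphocytes also express, had 9523, 7243, 8876, 7742 and 6445 normalized counts in untreated labeled spleen and 4051, 2885, 4480, 3426 and 6352 at 1 day, without overlap. It fell by 0.95 on the log2 scale (SE 0.18, limma adjusted p = 0.0018), by 0.75 at 3 days (adjusted p = 0.0224), and at 14 days was at 5746 to 8672. Hhex, a homeobox factor of endothelium and B cells, had 1173 to 1725 normalized counts in untreated libraries and 787 to 1089 at 1 day. It fell by 0.60 (SE 0.11, adjusted p = 0.00206) and, at 3 days, by 0.54 (adjusted p = 0.0133). Nfatc1 had 4394 to 5106 and, at 1 day, 2515 to 3582, and fell by 0.54 (SE 0.12, adjusted p = 0.00463).

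Nr2f2 and Tbx1 were also called at 1 day and are named here after their values were seen. Nr2f2, the partner of PROX1 that is also expressed by veins and stromal cells, had 386.1, 452.7, 401.9, 339.3 and 349.9 normalized counts in untreated labeled spleen and 233.9, 307.7, 289.0, 244.4 and 247.6 at 1 day. It fell by 0.54 (SE 0.13, limma adjusted p = 0.00786) at 1 day and by 0.58 (adjusted p = 0.017) at 3 days. Tbx1 fell by 0.46 at 1 day (adjusted p = 0.028), with 170 to 310 and 175 to 201 normalized counts, which overlap. Its call was lost without untreated replicate 2, 3 or 5 or 1-day replicate 1 or 3, with adjusted p from 0.0509 to 0.0719. Foxc1, Foxc2, Gata2 and Sox18 did not pass, with log2 values from -0.40 to -0.17 at 1 day.

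The call at 1 day covered 4 or 5 of the 10 factors when any library of those groups was left out. At 3 days it depended on single libraries: 2 factors were called without untreated replicate 1, 1 without 3-day replicate 2, 0 without 3-day replicate 3, 1 without 3-day replicate 5 and 3 to 5 without any of the others. In labeled lymph node 0 of 8 tested factors were called at each duration in limma, edgeR and DESeq2, with 3, 0 and 0 at an unadjusted p under 0.05. The difference between the labels passed in limma for 0 of the 10, with a lowest adjusted p of 0.101 at 1 day, where 6 had an unadjusted p under 0.05, and of 0.0731 at 3 days, where 4 did. DESeq2 called 3 of these differences at 3 days, and edgeR 0. The 10 include Tbx1, at 0 in labeled lymph node, and Foxc2, below the filter there, whose changes in that label were not tested. Adipocyte markers had a median log2 difference of 0.93 at 1 day in labeled spleen with 2 of 13 called, next to 16.6% of all rows. With their score as a covariate 5 factors were called. The part of adipocytes in the fall of the factors was not tested further.

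**Figure D5:**
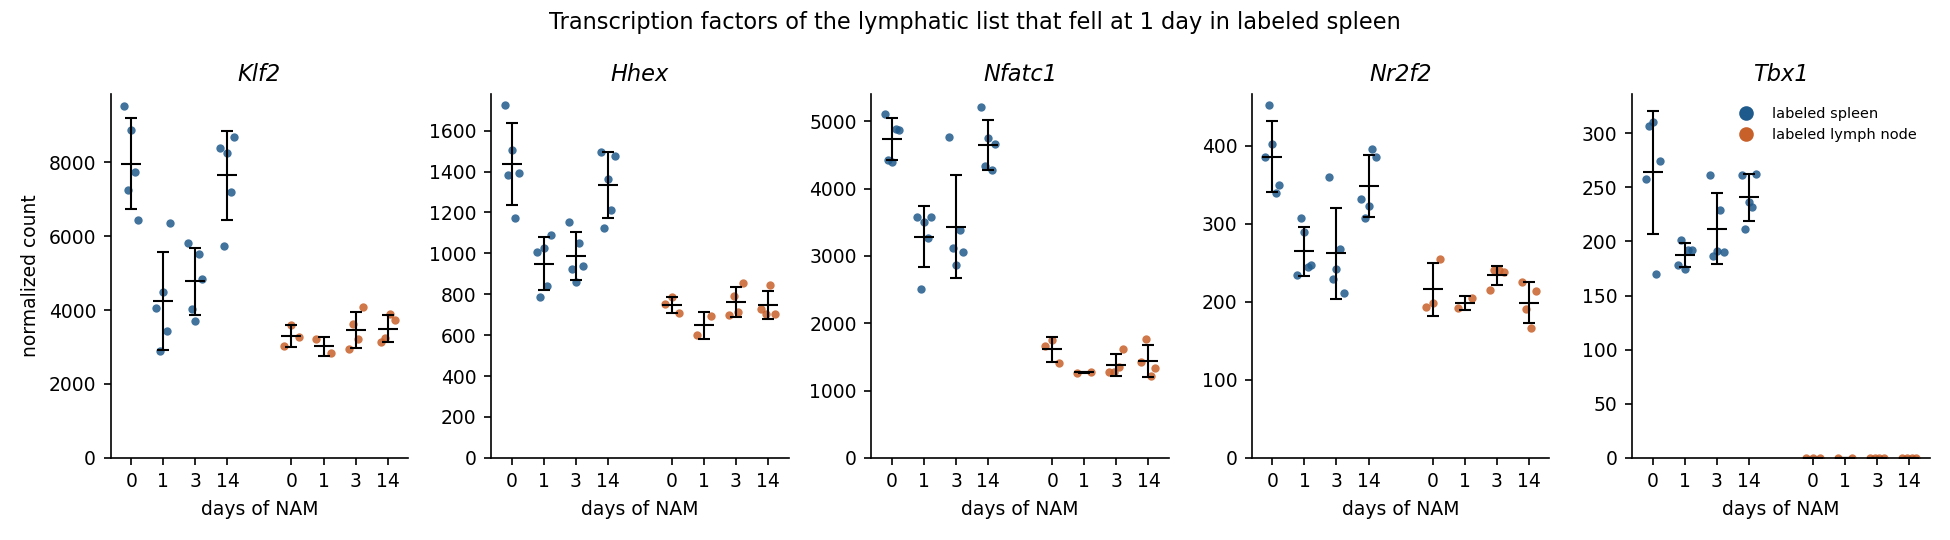
Normalized counts of 5 transcription factors of the lymphatic list in each library, by days of NAM, blue for labeled spleen and orange for labeled lymph node, with the mean and 1 SD in black. In labeled spleen Klf2 goes from a range of 6445 to 9523 to one of 2885 to 6352 at 1 day and is at 5746 to 8672 at 14 days, and Tbx1 is at 0 in labeled lymph node.

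The other lists had few calls under NAM. In labeled spleen 0 of 13 VEGFC-VEGFR3 signaling genes were called at 1, 3 or 14 days in limma, with log2 values from -0.57 to 0.60. At an unadjusted p under 0.05 there were 4, 1 and 0, edgeR called 0, 1 and 0 and DESeq2 1, 1 and 0. The F test over the 4 groups called 1 of the 13 in limma (Adamts14, named after its value was seen), and edgeR and DESeq2 also called 1. Of 34 surface, junction and secreted genes, 1 was higher and 4 were lower at 1 day and 1 was lower at 3 days, near the shares of all rows called (16.6% and 5.55%), and 0 were called at 14 days in limma, edgeR and DESeq2, with 1 at an unadjusted p under 0.05. Madcam1, the mucosal addressin of venules and of marginal sinus cells, fell by 0.69 (SE 0.19, limma adjusted p = 0.0177) and by 0.89 (adjusted p = 0.0133), from 216 to 402 normalized counts to 144 to 285 and 137 to 173. Its 1-day call was lost without 1-day replicate 4 (adjusted p = 0.0506). Celsr1 fell by 0.32 at 1 day (adjusted p = 0.00298) and Piezo1, a mechanosensitive channel, by 0.20 (adjusted p = 0.039). The remaining 2, named after their values were seen, were the sphingosine phosphate exporter Spns2, which fell by 0.33 (adjusted p = 0.0464), and the fatty acid receptor Cd36, which rose by 1.40 (adjusted p = 0.0415). Adipocytes also express Cd36, and with the adipocyte score as a covariate its log2 change was 0.53 in place of 1.40 (limma adjusted p = 0.00055). The part of adipocytes in the change was not tested further. The call of Piezo1 was lost without 8 of the 10 libraries of the 2 groups in turn, that of Spns2 without 8 and that of Cd36 without 6, with adjusted p up to 0.0942, 0.109 and 0.121.

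In labeled lymph node limma called 1 of 13 VEGFC-VEGFR3 signaling genes and 1 of 33 surface, junction and secreted genes at 1 day, the same numbers at 3 days and 0 of both lists at 14 days, where 1.21%, 1.24% and 0.791% of all rows were called. At 14 days 1 and 7 genes of these lists had an unadjusted p under 0.05, and edgeR called 0 of both. Of the surface, junction and secreted genes DESeq2 called 2 at each duration, and of the VEGFC-VEGFR3 signaling genes 1, 2 and 0. At 1 day Angpt2, a ligand of TIE2 that lymphatic growth needs, had 499 and 761 normalized counts against 312, 299 and 424 in untreated libraries (log2 change 0.85 ± 0.19, limma adjusted p = 0.0374). Ccl21a, the chemokine that lymphatic endothelium and reticular cells use to attract dendritic cells, had 12734 and 14387 against 7372, 6181 and 8346 (0.90 ± 0.17, adjusted p = 0.0126). Reads of Ccl21a can be shared with near-identical copies. Angpt2 was no longer called without untreated replicate 1 (0.124) or 2 (0.148) or without 1-day replicate 2 (0.313). Ccl21a was no longer called without untreated replicate 2 (0.0659), without 1-day replicate 1, the library with pancreas transcripts (0.0893), without 1-day replicate 2 (0.135), or with the pancreas score as a covariate (0.054). At 3 days Sphk1, a sphingosine kinase, fell by 1.42 (SE 0.31, adjusted p = 0.0355) and Adamts3, the protease that activates VEGFC, by 0.94 (SE 0.22, adjusted p = 0.0487). Sphk1 had 32.7 to 65.5 normalized counts against 85.1 to 187, and Adamts3 had 40.1 to 60.1 against 72.5 to 124. Sphk1 lost its call without untreated replicate 1 or 2 or 3-day replicate 1, 2 or 4, and Adamts3 without untreated replicate 2 or 3 or any 3-day library, with adjusted p up to 0.246 and 0.287.

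Most relations between members across libraries did not pass adjustment. Over the 20 libraries of labeled spleen, 18 of 21 pairs of members had a positive Pearson r, with a median of 0.20, and over the 13 of labeled lymph node 11 of 21 pairs did, with a median of 0.01. Of these 42 relations, 1 passed after Benjamini-Hochberg adjustment. Lyve1 and Flt4 in labeled spleen had r = 0.69 (permutation p = 0.00081, adjusted 0.034) and Spearman's rho = 0.63 (permutation p = 0.00318, adjusted 0.134). Leaving out the 2 libraries with the most extreme Lyve1 levels gave r = 0.54, and on deviations from the group means it was 0.77. Both genes are read from the same libraries, so shared tissue content and depth enter both. Also in labeled spleen, Pdpn with Vegfc, Prox1 with Flt4 and Lyve1 with Prox1 had r = 0.60, 0.59 and 0.57. Their adjusted permutation p was 0.0896, 0.0896 and 0.0991. The rows most like the mean standardized level of the 7 members were, in labeled spleen over 20 libraries, Gm13652 (r = 0.80), Slc38a4 (0.78), Sncaip (0.77), the row GSMG0005188, whose symbol reads as a date (0.76), and Bgn (0.75). In labeled lymph node over 13 libraries they were Csf2rb (0.90), Aplp2 (0.90), Arhgef40 (0.88), Tm9sf4 (0.88) and Cpd (0.86), given as a description with no test.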

How the data were processed

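RNA of spleens and lymph nodes was read as polyA libraries. The authors deposited a table of normalized counts (a linear signal: reads divided by a DESeq2 size factor, scaled separately for the 2 labels) on mm10, and their processing notes name FastQC, Picard, SAMtools, STAR 2.4.0 and DESeq2. Strand use in counting is not given in the sources used here. Groups were taken from sample titles, and 0 columns were left unmapped. Members and gene lists were chosen with earlier results of these data known.

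Values were tested as log2(normalized count + 1) with limma 3.58.1 (R 4.3.3, trend on mean level), fitting the 4 groups of each label together, over rows with a mean of at least 10 (18243 and 18215). Differences between labels used a joint fit after median-of-ratios rescaling of the 33 libraries (18528 rows). Log2 values understate changes of low genes. Tests were two-sided, with Benjamini-Hochberg adjustment over all rows and a threshold of 0.05. Intervals are 95%. Correlations used 100000 permutations (numpy 2.4.6). Whole reads were recovered for 100% of values (tolerance 0.01 read) for edgeR 4.0.16 and DESeq2 1.42.0. Replicates formed 56 pairs, of which 0 were identical. Labels do not say which samples share a mouse, and p-values then measure only the spread between samples. The test was run on simulated reads with less spread than several members show, so that run does not bear on the members not called.

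All members are named. From the 3 lymphatic lists the 3 rows with the smallest p in a comparison are named, and others are said to be chosen after their values were seen. Depth limits the precision of members with few reads, such as Lyve1 and Pdpn in labeled lymph node. The alternatives were pseudocounts of 0.1 and 5, no filter on low values or a mean of at least 50, TMM scaling, quantile normalization, no joint rescaling, array weights, the replicate number as a block, adipocyte or exocrine pancreas list scores as covariates, only the 2 groups compared, a rule of unadjusted p and fold, edgeR, DESeq2 and leaving out each library. The list counts under them were added after seeing the data. The result of 1 list gene is not reported here.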

Additional observations from a re-analysis of the deposited data

Results flagged for a closer look

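Among 124 sets of 4 or 5 libraries of a member or a called list gene, 6 held a library far from the others by Dixon's criterion, and chance flags about 1 in 20 sets. Of the members it was Prox1 alone, at 276 normalized counts in 3-day replicate 1 of labeled spleen, where the others had 113 to 149. The same library had 4763 for Nfatc1, where the others had 2868 to 3384. The remaining 4 were Nr2f2 at 215 in 3-day replicate 1 of labeled lymph node (others 239 to 241), and in labeled spleen Celsr1 at 1001 in 14-day replicate 5 (others 1086 to 1112), Madcam1 at 285 in 1-day replicate 5 (others 144 to 175) and Spns2 at 1977 in 1-day replicate 3 (others 1479 to 1525).

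The change at 1 day differed between the labels for 2 list genes in the joint limma model. Angpt2 rose in labeled lymph node relative to labeled spleen, with a log2 difference between changes (labeled spleen minus labeled lymph node) of -1.16 (adjusted p = 0.029). For Ccl21a it was -1.23 (adjusted p = 0.0319). The 1-day group of labeled lymph node has 2 libraries.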

How the results depend on the processing

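The 5 members called between the labels in untreated libraries numbered 4 without untreated replicate 3 of labeled lymph node (Prox1 was lost) and 5 or 6 under the other alternatives tried, and the 0 called at 14 days in labeled spleen and at 3 and 14 days in labeled lymph node stayed at 0, as did those for the difference between labels at 1 and 3 days. In labeled spleen at 1 day 1 member, Pdpn, was called with quantile normalization, with array weights, with the adipocyte score as a covariate and with DESeq2, and 0 to 1 with a library left out. At 3 days array weights called 2 (Pdpn and Prox1) and DESeq2 1 (Pdpn), and the F test called 1 with array weights. In labeled lymph node the F test called 0 to 1 with a library left out, and a rule of fold 1.5 or more and unadjusted p up to 0.05 called 1 at 1 day (Prox1) and 1 for the difference between labels at 14 days (Ackr4). Transcription factors called at 3 days in labeled spleen numbered 2 when only the 2 groups were fitted and 0 to 5 with a library left out. The cause was not tested. Untreated differences between labels and NAM changes with an unadjusted p under 0.05 kept their sign for the members and list genes recomputed, while differences between labels within NAM durations were not recomputed. Of 35 member changes under NAM with an unadjusted p above the threshold, 22 changed sign under some alternative. Their sizes were up to 0.12 as reported and up to 0.52 after the change, on the log2 scale.

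Totals over all rows moved more. In labeled spleen they ran from 1497 to 3932 at 1 day (3030 as reported), from 140 to 4722 at 3 days (1013), from 0 to 204 at 14 days (0) and from 1699 to 4764 in the F test (2260). In labeled lymph node they ran from 66 to 894 (221), 85 to 615 (226), 31 to 630 (144) and 147 to 980 (321), and for the difference between labels from 64 to 1253 (274), 41 to 1839 (117) and 5 to 522 (23).

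Same-numbered libraries of different groups had correlations of -0.50 to 0.47 in labeled spleen (median 0.04, with 13 of 30 pairs over 0.1). In labeled lymph node they ran from -0.11 to 0.08. Equal numbers need not mean the same mouse, so whether the 2 labels share mice was not tested. The joint fit treated all libraries as independent. With the replicate number as a block, 0 members were called in each NAM comparison and 5 between the labels, and 132 rows in place of 221 were called at 1 day in labeled lymph node. Of the list genes, Spns2 (limma adjusted p = 0.0583), Angpt2 (0.0543), Sphk1 (0.0905) and Adamts3 (0.119) were no longer called with the block. With no filter on low values Spns2 (0.0762), Cd36 (0.0658), Piezo1 (0.0712), Angpt2 (0.0596), Sphk1 (0.0634) and Adamts3 (0.0912) were not called. Fitting only the 2 groups also ended the calls of these 6 and of Madcam1 (0.0541) and Tbx1 (0.0762) at 1 day and Nfatc1 (0.0626) and Nr2f2 (0.0602) at 3 days. Each of TMM scaling, quantile normalization, array weights, a mean of at least 50, a pseudocount of 0.1 and the list scores ended the call of 1 or more of Spns2, Cd36, Piezo1, Ccl21a, Sphk1 and Adamts3 (0.0507 to 0.15). Leaving out a 1-day library of labeled lymph node leaves 1, assumed to vary like the other groups. Lyve1, Pdpn and Reln in labeled lymph node rest on 4 to 66 reads a library.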
